A study of Mus musculus with 6 samples.

Results

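Part of the array used here carries probes that are identified by a stretch of chromosome and a strand letter instead of by a transcript or gene. There were 4450 such chromosome-range probes among the 56605 non-control probes, chosen as every probe whose systematic name in the scanner files starts with a chromosome. They lay in 3230 ranges on 20 chromosomes of mouse build mm9, the build named in the file headers. A range was 62 to 538251 bases long, with a median of 10601 bases. Strand F was given for 2227 probes, strand R for 2222, and no strand for 1 probe. Both strands had probes in 832 ranges. The files do not say that the ranges lie between genes, that their RNA is long and non-coding, or whether the strand letter is that of the probe or of the transcript. Genes, exons and introns of that build were not used here, so the ranges are given by position alone. The probe's place inside its range is likewise not known.

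RNA came from C8D1A cells, a cloned line of mouse astrocytes, so all samples are of 1 clone. Both groups were grown for 6 days with 10% serum and then for 24 h without serum. The control group had 3 samples of untreated cells. The other group had 3 samples of cells that had received pulsed radiofrequency (PRF), electrical current in short high-frequency bursts that is used against neuropathic pain. The labels speak of independent experiments, and neither the settings of PRF nor the time from PRF to RNA extraction was known here. The comparison asked how RNA levels in the cultured astrocytes differed after PRF.

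Long intergenic non-coding RNAs are transcribed by RNA polymerase II from DNA between protein-coding genes, and most are less abundant and more restricted to one tissue than messenger RNAs. Some act in the nucleus on nearby genes, as scaffolds for chromatin complexes or of nuclear bodies, and others host small nucleolar RNAs or act in the cytoplasm. In glia and neurons several such RNAs are known for roles in cell fate and in the response to activity or stress. Arrays of this kind often place probes on both strands of a transcribed region, because the strand of a transcript that is known only from chromatin marks or partial cDNA can be unclear.

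All 6 samples were hybridised to 1 slide, which was scanned once, and having 3 arrays per group limits how precise the values are. Of 11 astrocyte marker genes 9 were above background, among them Gfap, Aldh1l1, S100b and Vim, and the summed log2 level of the list was 7.34 to 7.45 in control and 7.53 to 7.57 in PRF cells. Slc1a3 and Gja1, which are also astrocyte markers, were above background on no array. The microglia list (3 of 5 genes, with Aif1 and Cx3cr1 above background on no array) had a summed log2 level of 3.15 to 3.21 in control and 3.72 to 4.16 in PRF cells, and the fibroblast list -1.96 to -1.53 and -0.95 to -0.91, with Lum above background on no array. The neuron list (4 of 6, with Rbfox3 above background on no array) had 4.55 to 4.72 and 4.61 to 4.85, and the endothelial list -2.90 to -2.84 and -2.60 to -2.44, with Cdh5 above background on no array. The astrocyte, microglia, fibroblast and endothelial sums did not overlap between the groups, and their part in the results below was not tested. Single genes carried some of these sums. In the microglia list Itgam was higher (log2 change 0.86, limma adjusted p = 0.00406), Csf1r was not called (0.16, limma adjusted p = 0.184), and Tmem119 lay lower without overlap and was not called (-0.25, limma adjusted p = 0.0601). In the endothelial list Kdr was detected on PRF arrays alone and Pecam1 was not called (-0.09, limma adjusted p = 0.332). In the fibroblast list Col1a2, detected on 1 of 3 control arrays and all 3 PRF arrays, had a log2 change of 2.72. There Col1a1 was higher (0.44, limma adjusted p = 0.0383) and Dcn was not called (0.34, limma adjusted p = 0.366). A change in the number of cells of a type and a change in RNA per cell cannot be told apart in these samples.

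More chromosome-range probes were seen in PRF cells than in control cells. A probe counts here as detected on an array when the scanner software marked its signal as well above background. On the control arrays 2530, 2379 and 2405 of the 4450 probes were detected, and on the PRF arrays 2720, 2658 and 2559. Every PRF array was above every control array. The means were 2438 ± 80.7 and 2646 ± 81.2 (SD, n = 3 each), and an exact permutation test (two-sided) gave p = 0.1, the smallest value that 3 arrays against 3 can give. As a share of the probes this was 54.8% ± 1.84 on control arrays and 59.4% ± 1.81 on PRF arrays (SD, n = 3 each), while the 52155 other probes went from 60.6% ± 0.896 to 63.4% ± 0.862. Among those, probes of predicted transcripts (XR accessions) had 31.3%, 29.1% and 29.7% on control arrays and 35.5%, 34.5% and 32.9% on PRF arrays. Probes of messenger RNAs (NM accessions) had 69.4%, 68.2% and 68.3%, and 72%, 71.4% and 70.5%. Whether the rise of 4.63 percentage points in the chromosome-range probes differed from the rise of 2.87 points in the other probes was not tested. With the scanner software's weaker criterion, a signal positive and significantly above background, the counts were 3462, 3345 and 3366 in control and 3626, 3568 and 3520 in PRF cells, again without overlap.

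**Figure D1:**
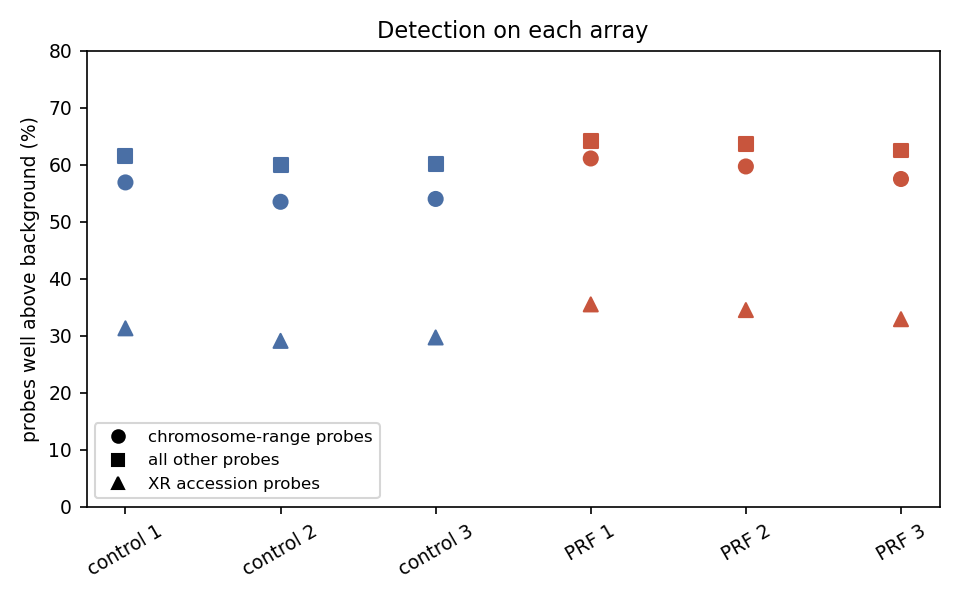
Share of probes well above background (percent, vertical axis) on each of the 6 arrays (horizontal axis; control in blue, PRF in red), for chromosome-range probes (circles), all other probes (squares) and probes of predicted transcripts with XR accessions (triangles). Chromosome-range probes lie between 53.5% and 56.9% on control arrays and between 57.5% and 61.1% on PRF arrays, below the other probes and above the XR probes on all 6 arrays.

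Between arrays the detected probes fell into a stable and a changing set. On all 6 arrays 2188 probes were detected and on none of them 1484. No control array but all 3 PRF arrays detected 127 probes, and the reverse held for 6 probes. Those 127 probes are 6.99% of the chromosome-range probes that no control array detected. For the other probes the same pattern held for 1006, or 5.22% of those on no control array. The 6 probes of the reverse pattern are 0.266% of the chromosome-range probes detected on all control arrays, beside 0.243% (74 probes) for the other probes.

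Of the 4450 probes 2527 were tested, because all 3 arrays of the control or the PRF group detected them. Of these, 2188 were detected on all 6 arrays, 268 were tested through the PRF arrays alone and 71 through the control arrays alone. The last sets had to differ in their direction to some degree, since the group where they are bright admitted them. The 1923 probes that were not tested had a median difference of 0.08 (log2, PRF minus control), equal at this rounding to the 0.08 of the untested other probes.

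Among the 2188 chromosome-range probes detected on all 6 arrays, 510 were higher and 283 were lower in PRF cells (limma, Benjamini-Hochberg adjusted p below 0.05 over all 34826 tested probes). That is 23.3% higher and 12.9% lower, beside 14.8% and 13.3% of all probes detected on all 6 arrays. The larger changes leaned further to one side, with 207 rises of 2-fold or more (9.46%) and 19 falls of that size (0.868%), against 4.4% and 0.6% of all such probes. At matched control levels, described below, 6.75% of the other probes rose by 2-fold or more. The median difference was 0.04, and from the 5th to the 95th percentile the differences ran from -0.59 to 1.48 (log2). In each of the 793 called probes the 3 control arrays and the 3 PRF arrays did not overlap. Without overlap were 1120 of the 2188 probes (51.2%) against 48.2% of all probes. Through the PRF arrays alone 191 of 268 were higher (71.3%, beside 76.5% of all probes so admitted), and through the control arrays alone 19 of 71 were lower (26.8%, beside 22.7%).

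The balance of rises and falls depended on how the arrays were scaled to each other. Levels here are log2 signals relative to the 75th percentile of each array, on which 64.3% of the calls were rises. Quantile normalization gave 385 rises and 575 falls (40.1% rises), no scaling 315 and 423 (42.7%), scaling on 7 spike-in probes 357 and 649 (35.5%), and normexp background correction 595 and 249 (70.5%). In that order, rises were 17.6%, 14.4%, 16.3% and 27.2% of the 2188 probes, beside 11.9%, 7.94%, 9.26% and 17.4% of all probes. Falls were 26.3%, 19.3%, 29.7% and 11.4%, beside 21.6%, 19.8%, 34.2% and 14.5% of all probes. Without scaling the median of all probes detected on all 6 arrays moved to -0.14 and with spike-in scaling to -0.19, and that of the chromosome-range probes to -0.10 and -0.15. Rises of at least 2-fold outnumbered falls of that size under each of these scalings, 154 to 47, 164 to 41, 159 to 50 and 99 to 5. The arrays stood in rows of the slide. Within row 1, which held control 1, control 3 and PRF 2, there were 219 rises and 33 falls. Within row 2, which held control 2, PRF 1 and PRF 3, limma gave 5 rises and 0 falls, with 520 probes at an unadjusted p below 0.05. Leaving out single arrays gave 374 to 520 rises and 162 to 252 falls, and the falls numbered 167 without control 1, 162 without control 3 and 174 without PRF 1. The shares were then 17.1% to 23.8% higher and 7.4% to 11.5% lower, beside 10.4% to 14.3% and 7.26% to 13.5% of all probes.

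**Figure D2:**
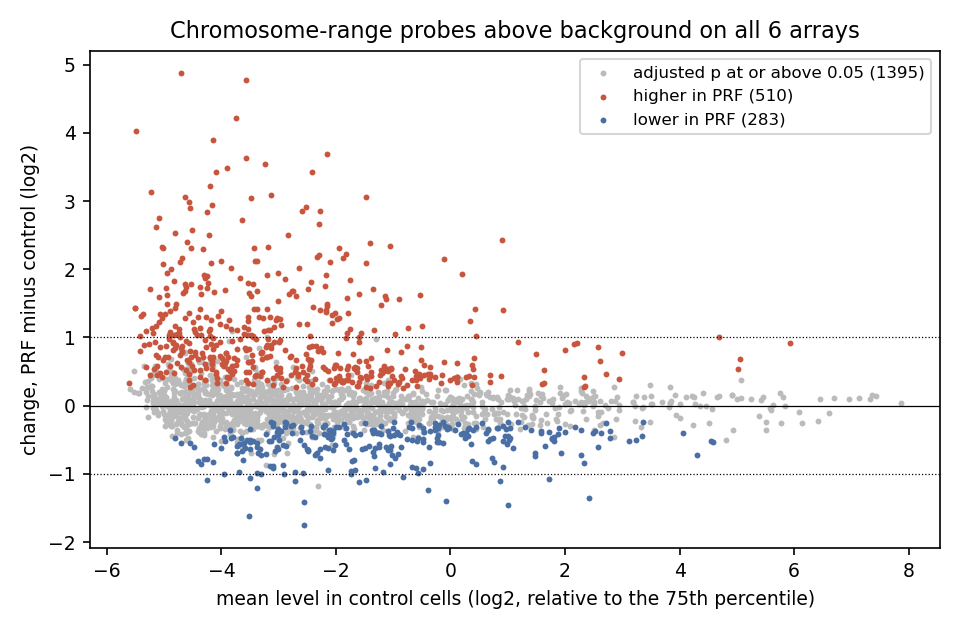
Change of each of the 2188 chromosome-range probes detected on all 6 arrays (log2, PRF minus control, vertical axis) against its mean level in control cells (log2 relative to the 75th percentile of the array, horizontal axis). Red points are the 510 rises, blue points the 283 falls and grey points the 1395 probes at an adjusted p of 0.05 or above; the dotted lines mark 2-fold, and the 207 large rises lie mostly at low control levels.

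Chromosome-range probes were dimmer than the rest, with a median level of -2.53 over the 6 arrays against -0.37 for the other probes, so shares were compared at matched control levels. In chromosome-range probes the share called higher fell from 39.4% at control levels of -6 to -5 (94 probes) and 30.2% at -5 to -4 (431 probes) to 14.8% at 0 to 1 (142 probes) and 6.82% at 1 to 2 (88 probes). The share called lower went the other way, from 0% and 2.78% in the first bins to 22.5% and 27.3%. Above a level of 2 neither course went on. Rises were 14.7% and falls 19.1% at 2 to 3 (68 probes), 0% and 15.4% at 3 to 4 (26 probes), 4.35% and 17.4% at 4 to 5 (23 probes), and 9.68% and 0% above 5 (31 probes). In the other probes rises went from 38.3% at -6 to -5 to 8.54% at 1 to 2, and falls from 0.325% to 17.3%. Only probes detected on all 6 arrays were counted, so the filter left little room for falls at the lowest levels. When the other probes were weighted to the control levels of the chromosome-range probes, 18.8% of them were higher and 12.5% lower. For the chromosome-range probes themselves the values were 23.3% (95% Wilson interval 21.6% to 25.1%) and 12.9% (11.6% to 14.4%). The difference from the other probes was thus 4.51 percentage points for rises and 0.405 for falls. It was 7.29 and -1.56 points when probes were matched on their PRF level instead, and -1.13 for falls with spike-in scaling, so the sign for falls depended on these choices. Probes of messenger RNAs (NM accessions) came to 17.9% and 10.2% at those levels. Probes of Ensembl transcripts came to 18.4% and 15.9%. The share of rises was nearer to that of the chromosome-range probes in the other sets: 23.1% for non-coding RefSeq transcripts (NR), 21.1% for predicted ones (XR) and 24.6% for cDNA clones (AK), with 13.8%, 15.4% and 16.1% lower. Rises of at least 2-fold, 9.46% of the chromosome-range probes, were 6.75% of the other probes at those levels. By set they were 6.9% for NM, 5.12% for Ensembl, 7.95% for NR, 8.07% for XR and 8.35% for AK probes. The intervals cover counting error alone, probes are not independent samples, and none of these differences was tested.

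**Figure D3:**
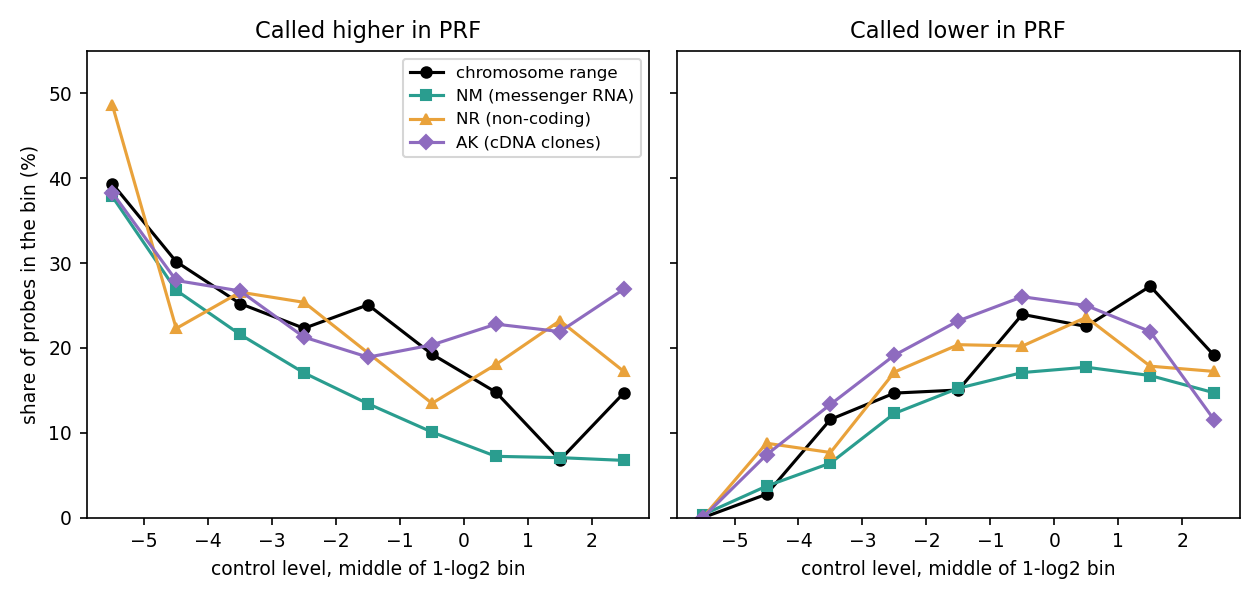
Share of probes detected on all 6 arrays that were called higher (left) or lower (right) in PRF cells (percent, vertical axes) in bins of control level 1 log2 unit wide (horizontal axes, middle of the bin). Black circles are chromosome-range probes, green squares messenger RNA probes, orange triangles non-coding RefSeq probes and violet diamonds cDNA clone probes; in chromosome-range probes rises go from 39.4% in the dimmest bin to 6.82% at levels of 1 to 2 and falls from 0% to 27.3%, and in the last bin shown, 2 to 3, they are 14.7% and 19.1%.

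The largest rises were of 8.74-fold to 27.3-fold and ended at mean PRF levels of -2.11 to 1.53, relative to the 75th percentile of the array. Ranges on chromosome 18 (185 probes, with 22 rises and 16 falls) were counted and are not named. Probe A_30_P01031645, in the short range chr13:21264306-21264482 on strand R, had levels of -3.58, -3.53 and -3.62 in control cells. In PRF cells it had 1.58, 1.17 and 0.84. All PRF arrays lay over 4 log2 units above all control arrays, a 27.3-fold rise (log2 change 4.77 ± 0.18, SE, limma adjusted p = 5.39e-05). Probe A_30_P01027435, in chr1:134237581-134248506 (R), had -3.83, -3.62 and -3.78 in control and 0.98, 0.44 and -0.01 in PRF cells. The groups were apart again, with an 18.5-fold rise (4.21 ± 0.24, limma adjusted p = 0.000143). PRF 1 was the highest and PRF 3 the lowest array for both probes.

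Probe A_30_P01025331 lies in a far longer range, chr6:125330524-125410249 (F), of 79726 bases. Its levels were -4.36, -4.10 and -4.01 in control and 0.21, -0.22 and -0.75 in PRF cells, without overlap, which is a 14.9-fold rise (3.90 ± 0.24, limma adjusted p = 0.00018). Probe A_30_P01033659, in chr13:104591796-104592249 (R), started from a brighter level. It had -2.27, -2.11 and -2.08 in control and 1.63, 1.62 and 1.36 in PRF cells. The PRF arrays lay close together here, and the rise was 12.9-fold (3.69 ± 0.10, limma adjusted p = 2.85e-05). The other 6 of the 10 largest rises were 8.74-fold to 12.4-fold and lay in chr1:85117750-85129200 (F), chr1:87343550-87362900 (F), chr6:35441848-35450830 (R), chr11:117835849-117842574 (R), chr12:81217572-81233910 (R) and chr2:157239202-157239982 (F). Each of the 10 rose within both rows of the slide, by 3.17 to 4.77 in row 1 and 2.99 to 4.74 in row 2 (log2).

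Falls were smaller. Probe A_30_P01024270, in chr17:15357376-15385701 (F), had levels of -2.49, -2.60 and -2.59 in control and -4.66, -4.46 and -3.80 in PRF cells. The control arrays agreed closely and all PRF arrays were lower, by 3.37-fold (log2 change -1.75 ± 0.22, SE, limma adjusted p = 0.00211). Probe A_30_P01024281, in chr6:115468025-115489250 (F), had -3.57, -3.31 and -3.69 in control and -5.35, -5.27 and -4.82 in PRF cells. It was 3.08-fold lower without overlap (-1.62 ± 0.17, limma adjusted p = 0.00112). The brightest of the 8 largest falls was A_30_P01032382 in chr5:35975265-35982561 (R), at 2.42, 2.17 and 2.68 in control and 0.75, 1.06 and 1.37 in PRF cells. It was 2.57-fold lower (-1.36 ± 0.19, limma adjusted p = 0.00363).

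The remaining 5 of the 8 largest falls were 2.18-fold to 2.73-fold. They lay in chr12:77544397-77564122 (R), chr10:95729303-95755173 (F), chr11:97457180-97487074 (R), chr10:60473030-60535340 (F) and chr3:51804655-51805883 (R). PRF 1 was the lowest PRF array for each of the 8 probes, and PRF 3 was the highest for all of them. Within the rows the 8 changes were -1.93 to -1.20 in row 1 and -1.78 to -0.98 in row 2.

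**Figure D4:**
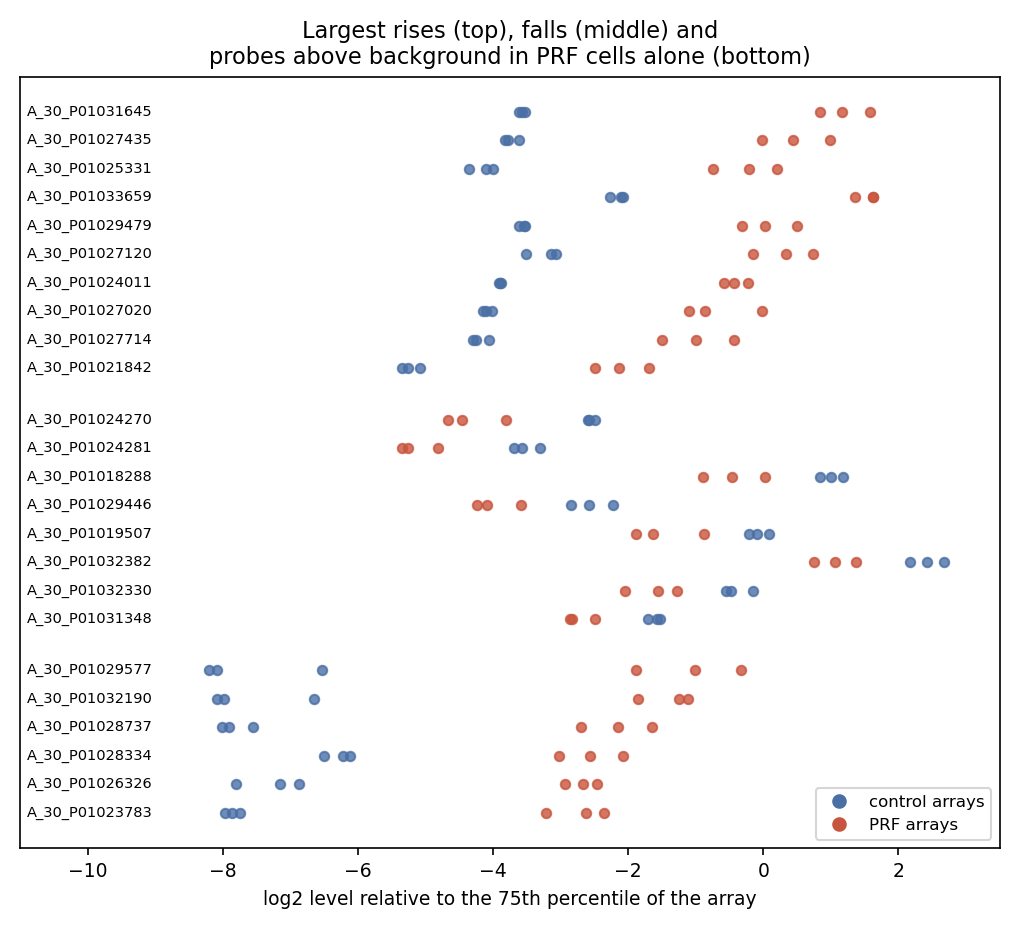
Levels on each array (log2 relative to the 75th percentile of that array, horizontal axis) of the 10 largest rises (top), the 8 largest falls (middle) and the 6 probes detected on PRF arrays alone with the largest bound (bottom), 1 probe per line, labelled with its probe identifier. Blue points are the 3 control arrays and red points the 3 PRF arrays; the groups do not overlap on any line, and the shifts of the rises are larger than those of the falls.

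Some probes went from background to clear signal. Where no control array detected a probe, the fold is a bound, set against the lowest signal that was well above background on each control array or the probe's own signal where that was higher. Of the 127 probes detected on all PRF arrays and on no control array, 81 had a bound of at least 2-fold. That share was not computed for the other probes. By the fitted change, 64.9% of all chromosome-range probes tested through the PRF arrays alone were called at least 2-fold higher. For the other probes so admitted it was 69.7%. Probe A_30_P01029577, in chr1:88187397-88187862 (R), was detected on 0 of 3 control arrays and stood at -0.33, -1.02 and -1.88 on the PRF arrays. It was at least 25.9-fold higher (limma adjusted p = 0.000565). Probe A_30_P01032190, in chr10:60473030-60535340 (R), had -1.12, -1.24 and -1.86 in PRF cells and was at least 20.6-fold higher (limma adjusted p = 0.000238). Both probes were tested through the PRF arrays alone and named for their large bounds, so these p-values are no separate support for a rise. Of the next 4, A_30_P01028737 in chr12:109619407-109619843 (F) was at least 12.2-fold higher, A_30_P01028334 in chr1:137679100-137689925 (F) at least 9.29-fold, A_30_P01026326 in chr11:97457180-97487074 (F) at least 8.49-fold, and A_30_P01023783 in chr13:28952570-28953234 (R) at least 8.2-fold.

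The reverse pattern was as rare among the other probes (the shares are given above), and its bounds were small. Of the 6 probes that every control array and no PRF array detected, A_30_P01022360 in chr3:126969590-126972626 (R) had the largest bound, at least 1.61-fold lower. Its control levels were -4.80, -4.72 and -5.50, close to background (limma adjusted p = 0.0435), and this call was lost under most other settings, normexp among them (limma adjusted p = 0.449). Probes A_30_P01028121 in chr1:15834778-15843077 (R) and A_30_P01031649 in chr2:67412478-67412959 (F) had bounds of at least 1.6-fold and 1.39-fold lower, and neither passed with normexp (limma adjusted p = 0.279 and 0.302). The probes of this pattern, too, were tested only through the group where they are bright.

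None of the 6 brightest chromosome-range probes was called. The brightest, A_30_P01022075 in chr17:17481706-17482457 (R), had levels of 7.90, 7.80 and 7.91 in control and 7.99, 7.97 and 7.78 in PRF cells. These overlapped, and the log2 change was 0.05 ± 0.08 (SE, limma adjusted p = 0.712). The next 5 were in chr7:108209996-108216032 (R), chr11:22681800-22707775 (R), chr17:48068261-48087905 (F), chr6:116123643-116124550 (F) and chr1:193875525-193978800 (R). Their log2 changes lay between 0.09 and 0.15.

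Probes that share a range and strand did not always give the same result. Of the 4062 pairs of range and strand, 3746 had 1 probe and 316 had several, up to 6. At least 2 of the probes were tested in 143. In 18 of these all were higher, in 2 all were lower, in 4 both directions were called, in 60 some were called in 1 direction and in 59 none was called. With probes detected on all 6 arrays alone these counts were 9, 2, 3, 50 and 55 of 119, and the median distance between the highest and lowest change in a range was 0.23 (log2). Probes of 1 range share their source, and they can lie in different exons or isoforms, which the files do not give.

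Close agreement was seen in chr17:26911032-26912366 (F), a range of 1335 bases with 3 tested probes. A_30_P01026788 had -0.08, -0.14 and -0.21 in control and 0.27, 0.34 and 0.32 in PRF cells. A_30_P01030991 had 0.13, 0.14 and 0.09 against 0.40, 0.59 and 0.63. A_30_P01022496, far dimmer, had -3.44, -3.45 and -3.34 against -2.83, -3.17 and -2.90. The 3 probes rose without overlap by 1.37-fold, 1.34-fold and 1.36-fold (limma adjusted p = 0.00395, 0.0103 and 0.0212). The last call was lost under quantile normalization (limma adjusted p = 0.212), and without scaling none of the 3 passed.

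Both tested probes of chr4:99329231-99338424 (F) were detected in PRF cells alone, at least 4.42-fold (A_30_P01028948) and at least 4.22-fold higher (A_30_P01024547). The same held in chr1:64696508-64699504 (F), at least 3.7-fold (A_30_P01027981) and at least 1.75-fold (A_30_P01021740). In chr11:117835849-117842574 (R), by contrast, 2 probes rose and the third was not called. A_30_P01027020 went from -4.02, -4.11 and -4.14 to -0.01, -0.86 and -1.10, a 10.8-fold rise, and A_30_P01026056 rose 8.34-fold. A_30_P01032862 had -3.19, -3.06 and -2.95 in control and -2.65, -3.04 and -2.91 in PRF cells, which overlap (log2 change 0.20 ± 0.12, SE, limma adjusted p = 0.254). In chr17:88466300-88495175 (F), A_30_P01028805 was detected in PRF cells alone (at least 1.92-fold higher) and A_30_P01031808 overlapped between the groups (log2 change -0.11 ± 0.11, limma adjusted p = 0.445).

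The strands of a range mostly differed in signal. Of the 832 ranges with probes on both strands, 271 were detected on all 6 arrays on both strands, 160 on F alone, 232 on R alone and 169 on neither. In 221 ranges one strand was detected on all 6 arrays and the other on none. The strand was represented by its brightest probe, and the median distance in level between the strands was 1.99 log2 units.

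The changes of the strands were close to unrelated. Across the 271 ranges Pearson's r was 0.04, a description, since the strands were read from the same arrays. Both strands were higher in 14 ranges, both lower in 6, and they were called in opposite directions in 19. One strand alone was higher in 68 and lower in 48, and neither was called in 116. The number of opposite calls was 7 to 13 when single arrays were left out, 13 being the count without PRF 3, and 7 without control 3. It was 11 without scaling, 10 with the row of the slide as a block, 1 within row 1 and 0 within row 2.

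**Figure D5:**
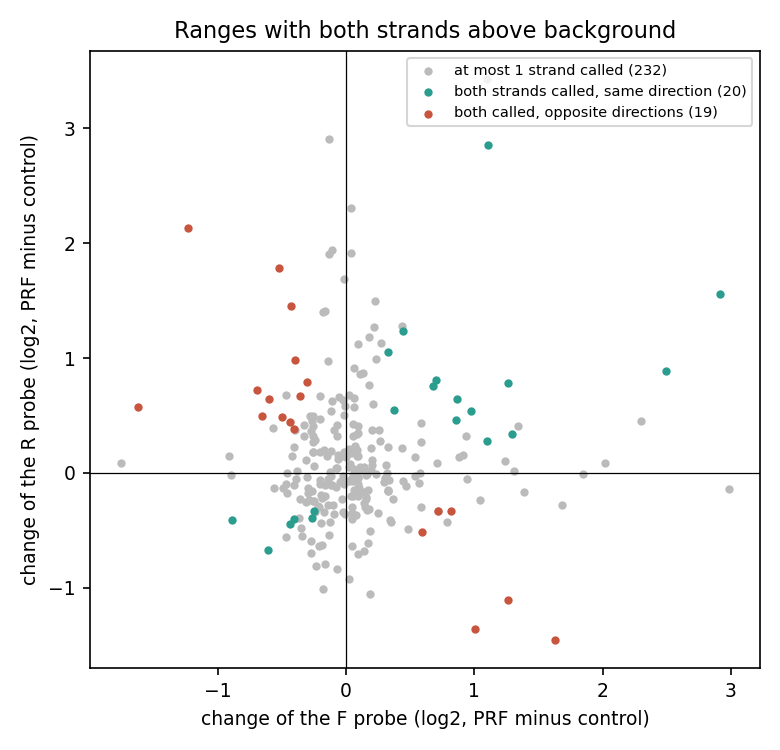
Change of the R probe (log2, PRF minus control, vertical axis) against that of the F probe (horizontal axis) for the 271 ranges detected on all 6 arrays on both strands, 1 point per range. Green points are the 20 ranges called in the same direction on both strands, red points the 19 called in opposite directions and grey points the 232 others, most of which spread along the axes.

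Among the large falls, the facing strand was often higher. Of the 19 falls of at least 2-fold, 9 had a probe on the other strand of the same range, and in 6 of these the brightest such probe was higher and in 0 lower. Of these 9 facing probes, 8 were detected on all 6 arrays, and 5 of the 8 were higher. The remaining facing probe was tested through the PRF arrays alone, where it is bright. The set of large falls was singled out after its values were seen, and no test was made of it. For all 283 falls the facing probe was higher in 22 of 135, or 16.3%, for rises in 18.2% and for probes not called in 16.2%. These counts include facing probes tested through the PRF arrays alone. Among facing probes detected on all 6 arrays the shares were 22.9%, 24.4% and 19.9%. Under quantile normalization 5 of 20 falls of at least 2-fold had a higher facing probe, and with spike-in scaling 6 of 22, each with 2 lower. Within row 1 it was 2 of 8, and leaving out single arrays it was 5 or 6 of 7 to 16.

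One of these ranges was chr10:60473030-60535340, 62311 bases long. On F, A_30_P01032330 had -0.55, -0.48 and -0.15 in control and -2.05, -1.55 and -1.28 in PRF cells, 2.35-fold lower (log2 change -1.23 ± 0.21, SE, limma adjusted p = 0.00684). On R, A_30_P01021059 had -4.10, -3.90 and -4.02 in control and -1.62, -1.72 and -2.29 in PRF cells, 4.37-fold higher (2.13 ± 0.18, limma adjusted p = 0.000549). Neither strand overlapped between the groups, and the other R probe of this range is the one described above as at least 20.6-fold higher.

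In chr12:77544397-77564122 the R probe A_30_P01018288 had 0.84, 1.01 and 1.17 in control and -0.89, -0.47 and 0.03 in PRF cells, 2.73-fold lower (log2 change -1.45 ± 0.23, SE, limma adjusted p = 0.00552). Its F probe A_30_P01022466 had -3.98, -4.66 and -4.45 against -2.38, -2.88 and -2.93, 3.1-fold higher (1.63 ± 0.22). A second F probe there, A_30_P01025685, was above background on no array. In chr5:35975265-35982561 the F probe A_30_P01024606 had 4.66, 4.85 and 4.54 in control and 5.80, 5.71 and 5.55 in PRF cells. It was 2.01-fold higher (1.01 ± 0.11, limma adjusted p = 0.00129), where the R probe was 2.57-fold lower. This was the brightest range with opposite calls among those named.

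In chr11:97457180-97487074 the R probe A_30_P01019507 fell from -0.09, -0.22 and 0.08 to -1.89, -1.64 and -0.88, 2.63-fold, while the F probe was detected in PRF cells alone. In chr6:115468025-115489250 the F probe fell 3.08-fold as given above, and the R probe A_30_P01018402 rose 1.49-fold (log2 change 0.58 ± 0.10, SE), from -4.04, -3.90 and -3.91 to -3.31, -3.24 and -3.56. A second R probe there, A_30_P01031183, was not called (0.27 ± 0.19, limma adjusted p = 0.319). The rise of A_30_P01018402 did not pass under quantile normalization (limma adjusted p = 0.061). The range with the largest fall, chr17:15357376-15385701, had no such partner: its R probe A_30_P01020212 had -2.80, -2.95 and -2.96 against -2.74, -2.86 and -2.86, which overlap.

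Of the 5 ranges with the highest level over both strands, 2 had a called probe. These were chr5:35975265-35982561, described above, and chr6:83368261-83407280, where the R probe A_30_P01026288 was 1.22-fold higher (limma adjusted p = 0.028). That call was lost without scaling (limma adjusted p = 0.3), with spike-in scaling (0.405), with no filter, with a replicate block, within either row, and without any single array other than PRF 1. The F probe of that range, A_30_P01032016, had a log2 change of -0.24 ± 0.10 (SE, limma adjusted p = 0.107), and it was called lower under quantile normalization, no scaling, spike-in scaling and normexp. In chr12:73838608-73862621 neither strand was called, with log2 changes of -0.36 on F (A_30_P01020570) and -0.23 on R (A_30_P01031264), but both were called lower under those same settings (limma adjusted p = 0.0124 to 0.0393 for F and 0.0145 to 0.0334 for R). Neither strand was called in chr11:22681800-22707775 and chr7:108209996-108216032.

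Neighbouring ranges were more alike on one strand than across strands. Among probes of different ranges within 10000 bases of each other, 605 pairs were on the same strand, and 80 of them were both higher, 36 both lower and 16 opposite. Of 415 pairs on opposite strands 35 were both higher, 4 both lower and 23 opposite. Pearson's r of the changes was 0.44 on the same strand and 0.14 across strands, given as a description, since pairs share arrays and some share a probe or overlap.

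Rises of at least 2-fold on one strand formed 17 runs of neighbouring or overlapping ranges, 3 of them on chromosome 18. How many groups of such ranges could have formed a run was not counted. The longest runs had 3 ranges, and those named were chosen after their values were seen. In the run chr10:96096995-96103867 (F), A_30_P01022510 had -2.11, -1.87 and -1.88 in control and 0.63, 0.38 and 0.05 in PRF cells. The 3 probes of this run, in ranges of 595, 566 and 136 bases, rose 3.55-fold, 4.42-fold and 4.95-fold without overlap. In the run chr14:73729977-73758159 (R), A_30_P01031079 had -2.01, -2.13 and -2.19 in control and -0.21, 0.24 and -0.02 in PRF cells. The 3 probes rose 2.43-fold, 4.32-fold and 2.71-fold. The range of A_30_P01031079, chr14:73746324-73749119, lies inside that of A_30_P01031783, chr14:73729977-73751877, so these ranges are not separate stretches. Whether the ranges of a run belong to 1 transcript is not given in the files.

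Shorter ranges held more calls. Of 385 probes in ranges of up to 1000 bases 28.1% were higher and 16.9% lower. The shares were 26.4% and 10.5% of 609 probes in ranges of over 1000 and up to 10000 bases, and 20.2% and 12.9% of 1194 in longer ranges. The median control levels of these classes were -2.99, -2.82 and -2.46, so the shorter ranges were also dimmer, and the part of level in this order was not tested. Across chromosomes other than chromosome 18 the share of rises went from 15.8% of 152 probes on chromosome 2 to 30.7% of 114 on chromosome 3, and that of falls from 5.2% of 155 on chromosome 1 to 20% of 90 on chromosome 10.

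The PRF arrays did not move equally far. Among the 510 rises PRF 1 was the highest PRF array in 341 (66.9%) and PRF 3 the lowest in 381 (74.7%). Among the 283 falls PRF 1 was the lowest in 204 (72.1%). In the other probes these shares were 59.5%, 66.3% and 63.4%. The highest PRF array among the falls was PRF 3 in 49.5% and PRF 2 in 43.1%, against 70.1% and 18.7% in the other probes, and this difference was not tested. Without PRF 1 there were 394 rises and 174 falls (18% and 7.95%, beside 11.2% and 7.88% of all probes). PRF 1, PRF 2 and PRF 3 stood in columns 1, 2 and 3 of the slide, and the part of position was not tested.

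A list of 73 well-known long non-coding RNA genes was read from probes with transcript accessions, which are no chromosome-range probes. Of these, 55 genes were on the array, 40 were tested and 38 were detected on all 6 arrays, with 9 higher (23.7%, beside 14.8% of all probes) and 4 lower (10.5%, beside 13.3%) and a median difference of 0.08. Rmrp, the RNA of the RNase MRP complex, had levels of -0.21, -0.20 and -0.07 in control and 3.80, 4.10 and 3.69 in PRF cells. It was 16.2-fold higher without overlap (log2 change 4.02 ± 0.12, SE, limma adjusted p = 2.85e-05). Dleu2, the host of the miR-15a and miR-16-1 genes, was 2.27-fold higher, and Airn and Kcnq1ot1, antisense RNAs of imprinted loci, were 2.26-fold and 1.79-fold higher. Carmn was 1.59-fold, Firre 1.53-fold and Neat1, the scaffold of paraspeckles, 1.48-fold lower, and Snhg1 was 1.5-fold higher. The remaining called genes detected on all 6 arrays were Snhg12, Ftx, Crnde and Mir22hg, 1.28-fold, 1.25-fold, 1.21-fold and 1.18-fold higher, and Oip5os1, 1.23-fold lower. Mhrt was above background in PRF cells alone. The brightest genes of the list, Snhg8, Norad and Snhg3, were not called.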

How the data were processed

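The deposited intensity values are 1-colour scanner output of Agilent Feature Extraction 10.7.3.1 (background-corrected processed signal, median signal, local background and flags per spot), per the file headers and the submitters' processing notes, not normalized between arrays. The normalization and tests behind the study itself were not stated in them.

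Outlier spots were left out, spots of a probe averaged, log2 taken, and the 75th percentile of each array subtracted. Probes that all 3 arrays of either group showed well above background were tested with limma 3.58.1 (lmFit and eBayes, group as the only term) in R 4.3.3, with Benjamini-Hochberg adjustment over 34826 probes at 0.05. The script was tested on simulated data, where 38% of 100 changes of 1.5-fold and 68% of 100 changes of 2-fold were called. None had the wrong sign, and 5 unchanged probes were called. A probe that was not called may therefore still have changed. Tables were made with Python 3.11.15, pandas 2.3.3 and scipy 1.17.1. The p-values measure the spread between 3 samples per group, labelled as independent experiments.

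Alternatives were quantile, median, spike-in and no scaling, normexp (offset 50, on median signals, since the files hold no mean signal), the authors' deposited series table (intensity), other filters, array row, replicate blocks and leaving out each array.

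The members and lists were chosen with earlier results of these data known. The rule named, outside chromosome 18, the 10 largest rises and 8 largest falls among called probes detected on all 6 arrays without overlap, the 6 largest bounds of probes detected in PRF cells alone and the 3 of the reverse, the 6 brightest, the 3 brightest not called, the 5 ranges with the most called probes, the 3 whose probes differed most, the 5 brightest ranges on both strands, and of the known genes the 6 largest changes and 3 brightest. Runs, Firre, Neat1, the other called known genes beyond the 6 largest changes, and strands facing a fall were added after their values were seen. Probe sequences were not used here. One cell type marker list is not reported here.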

Additional observations from a re-analysis of the deposited data

How the results depend on the processing

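Of the counts for probes detected on all 6 arrays (510 rises, 283 falls, 19 ranges with opposite strand calls, 13 known long non-coding RNA genes called, median difference 0.0437), quantile normalization gave 575 falls and a median of -0.117; no scaling 315 rises, a median of -0.0971 and 11 opposite ranges; spike-in scaling 649 falls and a median of -0.151. The shares of all probes under these scalings are given above. Testing with no filter gave 177 falls (8.09%, beside 8.17% of all probes) and 8 opposite ranges. With array row as a block there were 10 opposite ranges. Within row 1 there were 219 rises, 33 falls, 1 opposite range and 3 known genes, and within row 2, 5 rises, 0 falls, 0 opposite ranges and 1 known gene; each row has 1 array in one of its groups, assumed to vary like the other. Leaving out each array in turn gave 162 to 252 falls and 7 to 13 opposite ranges. The excess of rises over other probes at matched levels, 4.51 percentage points on control levels, was 7.29 in bins of the PRF mean. That of falls, 0.405, was -1.56 there and -1.13 with spike-in scaling. The cause was not tested.

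Deviations of samples with the same replicate number had correlations of 0.189, -0.133 and 0.0955, beside -0.229 to 0.134 for different numbers. The main fit did not pair them. Samples of the same number always stood in different rows and in the same column of the slide, so these values cannot show whether the experiments were paired. With a replicate block, which is also a block by column, there were 471 rises, 223 falls and 11 opposite ranges. The rises were 21.5% and the falls 10.2%, beside 13% and 10.9% of all probes.

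Over 18 settings, 1101 values of 62 named probes were recomputed. In 996 the side of the threshold was kept, and probes called both times also kept their direction. A probe called neither time could change sign and still count among these. In 90 the call was lost, many of these within a single row, in 15 a call was gained, and 0 changed direction as a call. The 10 largest rises, 8 largest falls and 6 probes detected in PRF cells alone lost calls within rows only. Probes near background have little signal to show a fall.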
